A study of Homo sapiens with 4 samples.

Results

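The EGFR family of receptor tyrosine kinases and its growth factors were followed as 9 human genes of the 36601 in the count tables. The receptors were EGFR, ERBB2, ERBB3 and ERBB4, and the ligands were EREG, AREG, HBEGF, TGFA and BTC. They were listed by symbol with no rule on their values, but earlier results of these data were known when they were chosen. All 9 were found, and each was set beside the mouse gene of the same name. The tumours were grown in nude mice, under the skin, from PANC-1, a human pancreatic ductal adenocarcinoma line. Single-cell RNA libraries came from tumours labelled agrimoniin, erlotinib, agrimoniin plus erlotinib (called the combination) and control, with 1 library for each. Agrimoniin is an ellagitannin of agrimony plants, and erlotinib blocks the kinase of EGFR. All 4 groups shared the cell line and the host, which lacks a thymus and so most T cells but keeps macrophages, monocytes and stromal cells. The title of the series speaks of a joint action of both drugs on growth, on lactic acid and on the tumour's surroundings. The series' design text speaks of a carrier, and it lists a compound named cyranin where the sample labels give erlotinib. The sample labels were followed. Dose, duration, the number of animals per library and their age are not given in the sources used here.

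Every barcode held UMIs (unique molecular identifiers, 1 for each captured RNA molecule) of both species. Each barcode was therefore divided by gene into a human part and a mouse part, and either can hold RNA of more than 1 cell. The libraries held 297 barcodes for agrimoniin, 306 for erlotinib, 251 for the combination and 202 for control, and no barcode sequence was shared between libraries. After filters, 283 with agrimoniin, 292 with erlotinib, 245 with the combination and 193 in control were kept as human parts, 1013 in all. These held 3690705 human UMIs with agrimoniin, 3775711 with erlotinib, 3109510 with the combination and 2420470 in control. The human share of all UMIs was 73.9% with agrimoniin, 73.8% with erlotinib, 77.9% with the combination and 68.5% in control. Levels are given as counts per 1000000 UMIs (CPM) of that species in the kept parts of a library. With 1 library per group there is no replicate check and no test, so each ratio compares a pair of libraries, and intervals are exact 95% intervals that cover counting error only. In human parts the mesenchymal gene VIM had 5609 CPM or more in each library. Of the other mesenchymal genes listed, ZEB1 had 111 to 143 CPM, CDH2 61.1 to 97.3 CPM and FN1 6.09 to 12.8 CPM. Of the epithelial genes listed, KRT8 had 36.0 to 49.2 CPM, KRT18 47.1 to 65.4 CPM and EPCAM 18.2 to 25.2 CPM. The epithelial genes KRT7, KRT19 and CDH1 had at most 7 UMIs each in a library. Of 4 human blood-cell genes, CD68 gave nearly all UMIs, LYZ and CD3E were at 0 in every library and PTPRC was at 0 except for 2 UMIs in control. Of 4 human stromal genes, none had over 2 UMIs in a library.

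EGFR binds EGF, TGFA, AREG, EREG, HBEGF and BTC, pairs with a second receptor of the family and starts RAS-RAF-MEK-ERK and PI3K-AKT signalling. ERBB2 has no known ligand of its own and acts as a partner, ERBB3 has a weak kinase and binds neuregulins, and ERBB4 binds neuregulins and some EGF-like factors, HBEGF, BTC and EREG among them. The ligands are made as membrane-anchored precursors that proteases of the ADAM group cut free, so they can act on the cell that made them or on neighbours, and in pancreatic tumours both the cancer cells and the host stroma can make them.

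EREG and AREG lie next to each other on human chromosome 4. In GENCODE 29 on GRCh38, EREG (ENSG00000124882) spans chr4:74365143-74388751 and AREG (ENSG00000109321) spans chr4:74445134-74455009, both on the plus strand, with 56383 bases between them. BTC (ENSG00000174808) follows at chr4:74744759-74794686 on the minus strand, 289750 bases beyond AREG. The 250 bases before the start of EREG (chr4:74364895-74365144) and of AREG (chr4:74444886-74445135) are shown because these neighbours were the ligand genes more than 1.5-fold below control in the results that follow. Both are from RefSeq on GRCh38.p14, 5′ to 3′ on the plus strand, and capitals mark the motifs TGACGTCA (the full cyclic AMP response element) or its TGACG core, CCAAT and TATAAA.
EREG: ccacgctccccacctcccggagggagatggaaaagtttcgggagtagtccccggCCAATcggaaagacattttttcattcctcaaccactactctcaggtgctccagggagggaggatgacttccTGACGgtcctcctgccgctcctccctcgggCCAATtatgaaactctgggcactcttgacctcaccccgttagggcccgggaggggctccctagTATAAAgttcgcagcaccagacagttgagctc
AREG: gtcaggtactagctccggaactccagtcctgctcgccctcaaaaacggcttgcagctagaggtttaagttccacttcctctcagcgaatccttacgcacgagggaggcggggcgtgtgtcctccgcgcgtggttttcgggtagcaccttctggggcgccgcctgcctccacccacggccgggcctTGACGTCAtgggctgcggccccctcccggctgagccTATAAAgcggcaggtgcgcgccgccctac
The EREG window held TATAAA 32 bases before the start, TGACG 125 bases before it, and CCAAT at 95 and 196 bases before it. The AREG window held TATAAA 29 bases before the start and TGACGTCA 65 bases before it. Both strands were searched, and the full element of AREG holds TGACG on each strand. Of 35116 human promoter windows of RefSeq searched at the same length, 10.7% held TATAAA, 21.2% TGACG, 32.0% CCAAT and 1.65% TGACGTCA. A match describes the letters and does not show that a factor binds there.

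EGFR, the receptor that erlotinib blocks, was the most abundant of the 9 genes, and over all human parts of a library no treated library differed from control beyond counting error. It had 590 UMIs with agrimoniin (159.9 CPM), 694 with erlotinib (184 CPM), 498 with the combination (160.2 CPM) and 409 in control (169 CPM). Against control the CPM ratios were 0.95 (0.83 to 1.08) for agrimoniin, 1.09 (0.96 to 1.23) for erlotinib and 0.95 (0.83 to 1.08) for the combination, and each interval holds 1. Erlotinib, the highest, differed from the other treated libraries beyond counting error, with ratios of 1.15 (1.03 to 1.29) over agrimoniin and, for the combination over erlotinib, 0.87 (0.78 to 0.98). An EGFR UMI was found in 71.4% of human parts with agrimoniin, 69.9% with erlotinib, 71.4% with the combination and 74.1% in control. With each part thinned to 5000 UMIs the shares were 48.2% with agrimoniin, 49.5% with erlotinib, 46.9% with the combination and 51.8% in control. All human parts are of 1 line, so no human class that should lack the gene was at hand to measure free RNA, and its part in these shares was not tested.

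The other receptors were far scarcer. ERBB2 had 36 UMIs with agrimoniin (9.75 CPM), 33 with erlotinib (8.74 CPM), 27 with the combination (8.68 CPM) and 16 in control (6.61 CPM). ERBB3 had 12 UMIs with agrimoniin (3.25 CPM), 24 with erlotinib (6.36 CPM), 22 with the combination (7.08 CPM) and 9 in control (3.72 CPM). For both genes, neighbours in the order of levels did not differ beyond counting error, although ERBB3 was 2.18-fold higher with the combination than with agrimoniin (1.03 to 4.82). ERBB4 had 20 UMIs in 5 human parts with agrimoniin, 7 in 4 with erlotinib, 18 in 8 with the combination and 11 in 6 in control, and 11 of the 20 UMIs with agrimoniin came from a single part. These 3 genes stayed under a mean of 10 CPM in every comparison and are outside the counts of called genes below.

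**Figure D1:**
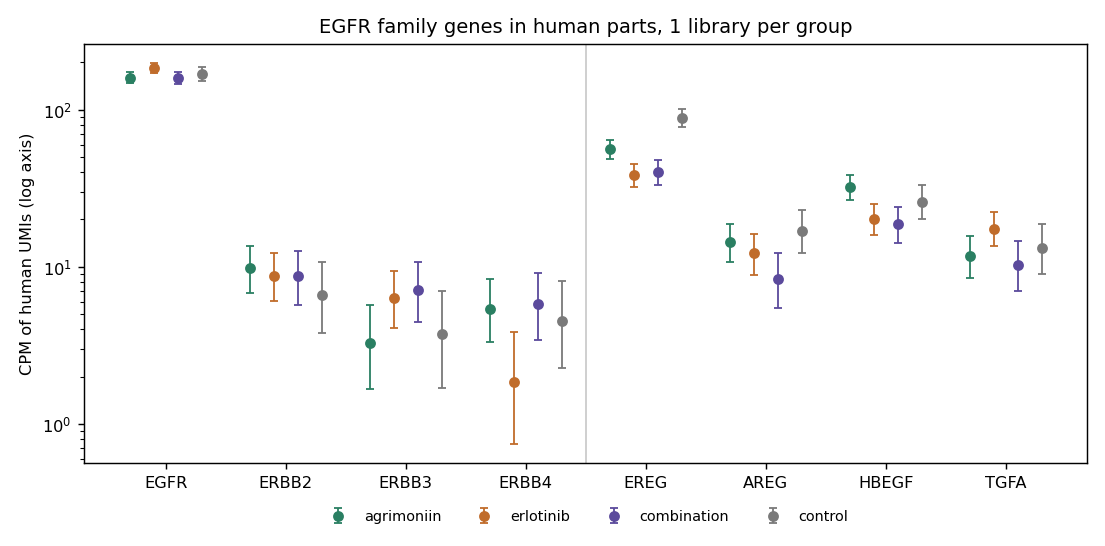
Level of 4 receptor and 4 ligand genes in human parts, in CPM on a log axis, with 1 point per library and exact 95% Poisson intervals. EGFR stays between 159.9 and 184 CPM, while EREG is highest in control at 88.8 CPM and lowest with erlotinib at 38.4 CPM; BTC had 0 UMIs and is not drawn.

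EREG, which encodes epiregulin, had the most UMIs of the EGFR ligand genes in human parts and was lower in all 3 treated libraries than in control. It had 207 UMIs with agrimoniin (56.1 CPM), 145 with erlotinib (38.4 CPM), 124 with the combination (39.9 CPM) and 215 in control (88.8 CPM). Erlotinib was 2.31-fold below control (1.86 to 2.88), the combination 2.23-fold (1.78 to 2.80) and agrimoniin 1.58-fold (1.30 to 1.93). The combination and erlotinib did not differ beyond counting error (ratio 1.04, 0.81 to 1.33), whereas the combination stood at 0.71 of agrimoniin (0.56 to 0.89). An EREG UMI was found in 77 of 283 human parts with agrimoniin, 55 of 292 with erlotinib, 49 of 245 with the combination and 66 of 193 in control, which after thinning to 5000 UMIs was 15.2% with agrimoniin, 11.7% with erlotinib, 13.1% with the combination and 22.3% in control. Human parts with at least 5 EREG UMIs numbered 14 with agrimoniin, 8 with erlotinib, 8 with the combination and 15 in control, although control had the fewest parts. The top 3 parts held 31 of the EREG UMIs with agrimoniin, 34 with erlotinib, 30 with the combination and 43 in control, so no level rested on a single part. The median mitochondrial share of a human part was 9.65% with agrimoniin, 8.97% with erlotinib, 9.13% with the combination and 10.1% in control. With parts at or under 10% mitochondrial UMIs alone, the EREG ratio to control was 0.79 for agrimoniin, which ends that call, 0.54 for erlotinib and 0.58 for the combination.

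AREG, the amphiregulin gene beside EREG, was scarcer and lowest with the combination. It had 53 UMIs with agrimoniin (14.4 CPM), 46 with erlotinib (12.2 CPM), 26 with the combination (8.36 CPM) and 41 in control (16.9 CPM). The combination was 2.03-fold below control (1.21 to 3.45) and 1.72-fold below agrimoniin (1.06 to 2.86). The intervals of the other AREG ratios, agrimoniin and erlotinib against control among them, hold 1. In barcodes with 75% or more human UMIs the ratio to agrimoniin was 0.68, which ends that call. The 26 UMIs of the combination came from 13 human parts, and 13 of them from the top 3 parts.

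HBEGF, the heparin-binding member, and TGFA, transforming growth factor alpha, did not follow EREG. HBEGF had 118 UMIs with agrimoniin (32.0 CPM), 76 with erlotinib (20.1 CPM), 58 with the combination (18.7 CPM) and 63 in control (26.0 CPM). No treated library differed from control beyond counting error, with ratios of 1.23 (0.90 to 1.70) for agrimoniin, 0.77 (0.55 to 1.10) for erlotinib and 0.72 (0.49 to 1.04) for the combination. Against agrimoniin, HBEGF was 1.71-fold lower with the combination (1.24 to 2.39) and 1.59-fold lower with erlotinib (1.18 to 2.15). Where human UMIs made up 75% or more of a barcode, HBEGF in erlotinib over agrimoniin was 1.07, so its direction turned. With equal weight for each cluster of human parts the HBEGF ratios were 0.92 for erlotinib and 0.76 for the combination over agrimoniin, which ends both calls.

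TGFA had 43 UMIs with agrimoniin (11.7 CPM), 66 with erlotinib (17.5 CPM), 32 with the combination (10.3 CPM) and 32 in control (13.2 CPM). It was 1.70-fold lower with the combination than with erlotinib (1.10 to 2.68) and 1.5-fold higher with erlotinib than with agrimoniin (1.01 to 2.26), while no treated library differed from control beyond counting error. Both differences turned round among human parts in barcodes with a fibroblast-like mouse part, on counts of 5 to 23 UMIs. There the combination stood at 2.60 times erlotinib, with an interval that holds 1 (0.87 to 9.31), and erlotinib at 0.23 times agrimoniin (0.07 to 0.62). Beside macrophage-like parts both kept their direction. The ratio there was 0.22 (0.08 to 0.51) for the combination over erlotinib and 2.66 (1.41 to 5.25) for erlotinib over agrimoniin. BTC, betacellulin, had a UMI in 0 of 1013 human parts, which at 3 counts of the total allows a share of up to 0.296%.

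Summed over the 5 ligand genes, human parts held 421 ligand UMIs with agrimoniin (114 CPM), 333 with erlotinib (88.2 CPM), 240 with the combination (77.2 CPM) and 351 in control (145 CPM). The combination was 1.88-fold below control (1.59 to 2.22), erlotinib 1.64-fold (1.41 to 1.92) and agrimoniin 1.27-fold (1.10 to 1.47). Without EREG the sum was 58.0 CPM with agrimoniin, 49.8 with erlotinib, 37.3 with the combination and 56.2 in control, and only the combination then stood below control beyond counting error, 1.51-fold (1.17 to 1.95). EREG made up, of the ligand UMIs, 49.2% with agrimoniin, 43.5% with erlotinib, 51.7% with the combination and 61.3% in control. The 4 receptors together gave 178 CPM with agrimoniin, 201 with erlotinib, 182 with the combination and 184 in control, without a difference from control beyond counting error. The share of human parts with at least 1 ligand UMI was 49.1% with agrimoniin, 39.0% with erlotinib, 38.0% with the combination and 50.3% in control. Of all human parts with EREG, 17.0% also had AREG, against 6.14% of those without it, and their median depths were 13378 and 11615.5 UMIs.

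Of the 9 genes, 5, namely EGFR, EREG, AREG, HBEGF and TGFA, had a mean of at least 10 CPM in each comparison, and a gene was called at 1.5-fold in either direction. Against control, 1 of the 5 was called with agrimoniin (EREG, lower), where 5.18% of 9251 human genes were called, 3.21% higher and 1.97% lower. With erlotinib 1 was called (EREG, lower), against 6.46% of 9243 genes, 3.7% higher and 2.76% lower. With the combination 2 were called (EREG and AREG, both lower), against 5.93% of 9241 genes, 3.18% higher and 2.75% lower. The combination had 1 called gene against erlotinib (TGFA, lower), beside 4.78% of 9262 genes, 2.56% higher and 2.22% lower. Against agrimoniin the combination had 2 (AREG and HBEGF, both lower), beside 3.76% of 9284 genes, 1.65% higher and 2.11% lower. Erlotinib had 2 against agrimoniin (HBEGF lower, TGFA higher), beside 4.23% of 9283 genes, 1.82% higher and 2.41% lower. The median log2 ratio of the 5 genes was -0.18 for agrimoniin, -0.37 for erlotinib and -0.48 for the combination against control, beside 0.03 for agrimoniin, 0.02 for erlotinib and 0.02 for the combination over all genes tested. The 3 comparisons with control rest on the same control library, so they are not independent of each other.

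To see where in the tumour cell population each gene was found, human parts were clustered without the family's genes and without EGF, EPGN and the neuregulins. Cluster 0 was led by CCL2, GJA1 and VCAN, cluster 1 by LGR4, COL12A1 and H19, cluster 2 by KRT80 and NDUFB11, cluster 3 by CYP1B1, NECTIN3 and EFNB2, and cluster 4, called mitotic-like, by TOP2A and MKI67. Cluster 2 stayed unnamed, but the mitotic genes UBE2C and PLK1 were also among its leading genes. Genes of cycling cells were therefore not confined to cluster 4. With the libraries summed, EGFR lay between 141 CPM in cluster 2 and 181 CPM in cluster 0, a narrower range than that of the ligands. By library it was less even. In cluster 1 EGFR had 77 UMIs with agrimoniin (134 CPM), 191 with erlotinib (199.97 CPM), 74 with the combination (122 CPM) and 105 in control (281 CPM). There it was below control beyond counting error in each treated library, with ratios of 0.48 (0.35 to 0.65) for agrimoniin, 0.71 (0.56 to 0.91) for erlotinib and 0.43 (0.32 to 0.59) for the combination. In the other 4 clusters the only interval without 1 was that of erlotinib in cluster 0, at 1.30 (1.01 to 1.68). The libraries differ in level and in their shares of each cluster, so the summed levels that follow are given beside those of single libraries.

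With the libraries summed, EREG reached 92.4 CPM (80.0 to 106) in cluster 3 and 70.0 CPM (59.5 to 81.8) in cluster 4, against 33.5 to 44.3 CPM in the other 3. Cluster 3 was highest in agrimoniin, combination and control libraries, but with erlotinib cluster 4 had 73.0 CPM and cluster 3 57.7 CPM, and in control cluster 1, at 90.9 CPM, was close to cluster 4, at 92.9 CPM. TGFA was found mostly in the same pair, with 38.6 CPM (30.9 to 47.6) in cluster 4 and 26.0 CPM (19.7 to 33.8) in cluster 3, which held 50.3% and 32.4% of its UMIs, and 0.78 to 4.78 CPM elsewhere. In control the order of that pair was the other way, with 39.5 CPM in cluster 3 and 16.5 CPM in cluster 4. HBEGF was highest in cluster 0 at 49.5 CPM (42.4 to 57.4), which held 54.9% of its UMIs, and 7.37 to 23.0 CPM elsewhere. With the combination, HBEGF had 22.4 CPM in cluster 0 and 22.7 CPM in cluster 3. AREG varied less, between 8.29 and 19.5 CPM.

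**Figure D2:**
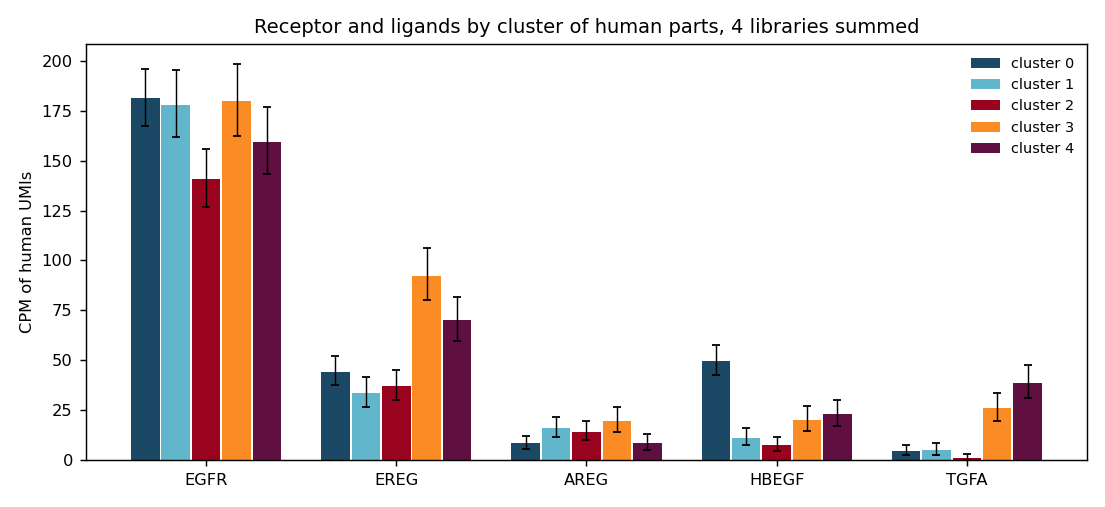
Level of EGFR and 4 ligand genes in the 5 clusters of human parts, in CPM with the 4 libraries summed and exact 95% Poisson intervals. In these sums EREG is highest in cluster 3, HBEGF in cluster 0 and TGFA in cluster 4, an order that single libraries do not all share.

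EREG was lower than in control in all 5 clusters with agrimoniin, in all 5 with erlotinib and in all 5 with the combination. In cluster 3 it had 88.7 CPM with agrimoniin, 57.7 with erlotinib, 90.8 with the combination and 141 in control. The smallest level was in cluster 1 with the combination, 4 UMIs or 6.59 CPM, against 34 UMIs or 90.9 CPM there in control. Not all of these differences exceed counting error. For agrimoniin the interval against control holds 1 in clusters 0 (ratio 0.77, 0.50 to 1.18), 2 (0.66, 0.38 to 1.17) and 4 (0.68, 0.44 to 1.07). For erlotinib it holds 1 in clusters 0 (0.71, 0.43 to 1.16) and 4 (0.79, 0.51 to 1.22), and for the combination in none. The share of human parts in cluster 0 was 33.6% with agrimoniin, 21.6% with erlotinib, 35.1% with the combination and 32.1% in control. With each cluster given equal weight the EREG ratio to control was 0.64 for agrimoniin, 0.47 for erlotinib and 0.48 for the combination. AREG with the combination was lower than in control in 3 of 5 clusters and higher in 2, on 3 to 18 UMIs each. HBEGF showed no such pattern: within cluster 0 it was 1.52 times control with agrimoniin (1.03 to 2.31) and 0.43 times control with the combination (0.24 to 0.76). TGFA in cluster 4 had 32 UMIs with agrimoniin (48.4 CPM), 29 with erlotinib (48.1 CPM), 18 with the combination (35.4 CPM) and 8 in control (16.5 CPM). There it stood above control, 2.93-fold with agrimoniin (1.32 to 7.36) and 2.91-fold with erlotinib (1.30 to 7.37), the interval for the combination holds 1, and in cluster 3 agrimoniin was below control (ratio 0.38, 0.15 to 0.88). Summed over 10 genes of S phase, human parts had 616 CPM with agrimoniin, 676 with erlotinib, 630.3 with the combination and 471 in control. Over 10 mitotic genes the sum was 1102 CPM with agrimoniin, 1140 with erlotinib, 1022 with the combination and 988 in control, and the part of these phases in the ligand levels was not tested.

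**Figure D3:**
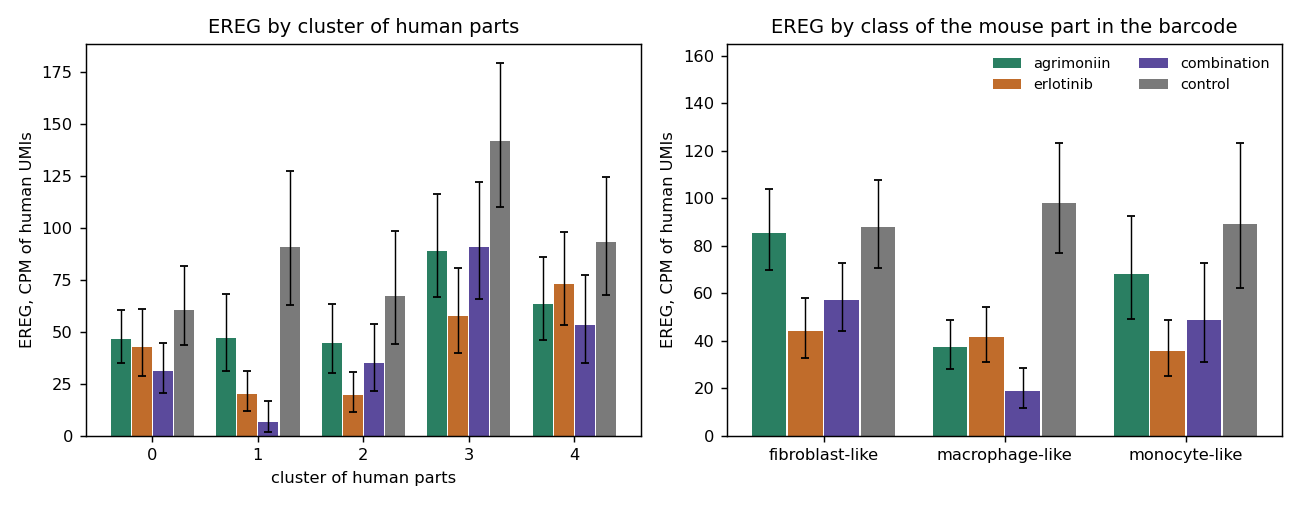
EREG in CPM of human UMIs for the 4 libraries, by cluster of human parts (left) and by class of the mouse part in the same barcode (right), with exact 95% Poisson intervals. Control is highest in every cluster and class, but beside fibroblast-like mouse parts agrimoniin, at 85.6 CPM, lies close to control, at 87.8 CPM.

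The mouse genes show which ligand RNAs came from the host. Of the UMIs of a gene pair over all deposited barcodes, the human gene gave 86.2% for EGFR, 87.0% for EREG, 87.4% for AREG and all 176 for TGFA, but 32.1% (29.2 to 35.1) for HBEGF. These shares depend on the human share of all UMIs, which was 68.5% in control and up to 77.9% with the combination. Scaled to each species' own UMIs, mouse Hbegf had 139.7 CPM with agrimoniin, 123 with erlotinib, 137 with the combination and 173 in control. It was below control in each treated library, with ratios of 0.81 (0.66 to 0.99) for agrimoniin, 0.71 (0.58 to 0.88) for erlotinib and 0.79 (0.63 to 1.00) for the combination. Mouse Hbegf stood 4.37 to 7.36 times above human HBEGF across the 4 libraries. Mouse Ereg had 15 UMIs with agrimoniin (11.2 CPM), 32 with erlotinib (23.1 CPM), 14 with the combination (15.7 CPM) and 43 in control (37.4 CPM), below human EREG in each library. Mouse Areg had 6 UMIs with agrimoniin, 12 with erlotinib, 4 with the combination and 2 in control, and Btc had 1 in all. Mouse Tgfa had no UMI in any of 1053 mouse parts. Mouse Egfr had 71.0 CPM with agrimoniin, 59.3 with erlotinib, 92.2 with the combination and 88.7 in control, and only erlotinib was below control beyond counting error (ratio 0.67, 0.49 to 0.90). Over all libraries Erbb2 had 9 UMIs, Erbb3 4 and Erbb4 2.

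**Figure D4:**
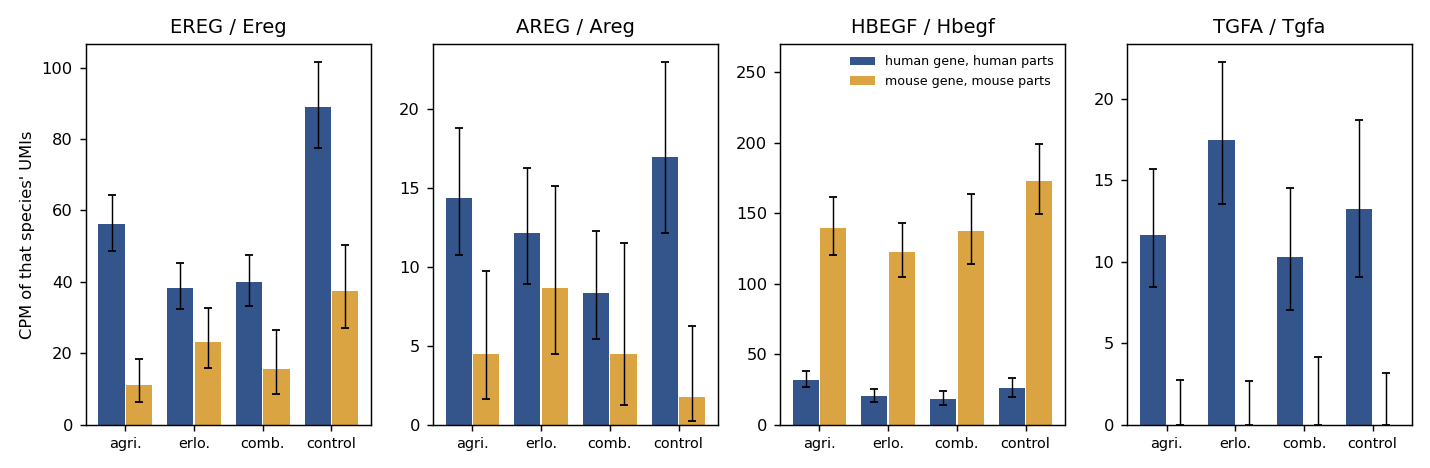
Human ligand gene in human parts beside the mouse gene of the same name in mouse parts, in CPM of that species' UMIs, with exact 95% Poisson intervals and a separate scale for each gene. EREG, AREG and TGFA are higher on the human side in each library, and HBEGF is higher on the mouse side in each. The human and mouse intervals overlap for AREG with erlotinib and with the combination, and narrowly for EREG with erlotinib.

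Mouse parts were clustered in the same way and named from marker lists. Fibroblast-like parts numbered 366, macrophage-like 381, monocyte-like 206, pericyte or smooth muscle-like 29 and endothelial-like 19, and 52 stayed unnamed. Mouse Egfr and Ereg were found mostly in fibroblast-like parts, which were 34.8% of mouse parts and held 93.6% of the Egfr UMIs and 96.2% of the Ereg UMIs. Egfr had 156 CPM (140 to 174) there, against 6.25 CPM in macrophage-like and 2.76 CPM in monocyte-like parts, and it was found in 52.2% of fibroblast-like parts against 2.10% of macrophage-like parts. The median depth was 5306.5 mouse UMIs in fibroblast-like and 3468 in macrophage-like parts. Ereg had 46.2 CPM (37.6 to 56.1) in fibroblast-like parts and 0 UMIs in macrophage-like and monocyte-like parts, where the upper bound of the interval is 2.56 CPM for macrophage-like and 5.08 CPM for monocyte-like parts. With finer clustering, 58 mouse parts formed an unnamed cluster led by Hmga2 and Grem1 that held 47 of 104 Ereg UMIs, at 134 CPM, and the level in the parts then named fibroblast-like was 30.8 CPM. The 587 barcodes with a macrophage-like or monocyte-like mouse part held 344 human EREG UMIs and no mouse Ereg UMI, and 1297 human EGFR UMIs with 11 of mouse Egfr. This limits how often human molecules of EREG and EGFR can have been counted as mouse. The limit is far looser for AREG, with 88 human and 15 mouse UMIs there, and for HBEGF, with 211 human and 98 mouse UMIs.

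Hbegf was found more widely. It had 423 CPM (291 to 594) in endothelial-like parts on 33 UMIs, 237 CPM (217 to 259) in fibroblast-like, 177 CPM (115 to 259) in pericyte or smooth muscle-like, 49.6 CPM in monocyte-like and 43.0 CPM in macrophage-like parts. Among macrophage-like parts, the cluster led by Ccl8, Cbr2 and Lyve1 (81 parts) had 131 CPM (94.9 to 177), against 17.1 CPM (10.3 to 26.7) in the cluster led by Fcrls, Cadm1 and Itgax (300 parts). Of 24 Areg UMIs, 13 were in monocyte-like parts. Among fibroblast-like parts, Ereg was higher in the cluster led by Grem1 and Col11a1 (61.6 CPM, 49.2 to 76.2) than in the one led by Prg4 and Efemp1 (19.1 CPM, 10.7 to 31.5), while Egfr (152 and 163 CPM) and Hbegf (241 and 231 CPM) had overlapping intervals.

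**Figure D5:**
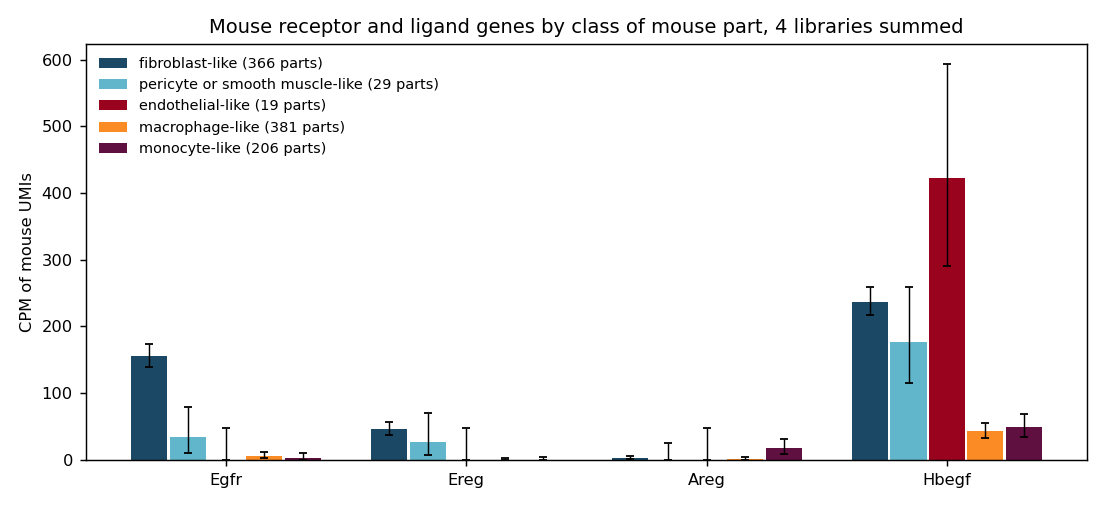
Mouse Egfr, Ereg, Areg and Hbegf by class of mouse part, in CPM of mouse UMIs with the 4 libraries summed and exact 95% Poisson intervals. Egfr and Ereg are highest in fibroblast-like parts, and Hbegf is high in endothelial-like, fibroblast-like and pericyte or smooth muscle-like parts.

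Within fibroblast-like parts as a whole, mouse Ereg had 15 UMIs with agrimoniin (26.1 CPM), 29 with erlotinib (51.5 CPM), 14 with the combination (34.3 CPM) and 42 in control (67.8 CPM). The agrimoniin level was 2.60-fold below control (1.41 to 5.05) and that of the combination 1.98-fold (1.06 to 3.92), and the interval for erlotinib holds 1 (ratio 0.76, 0.46 to 1.25). The class lay in different clusters by library: the cluster led by Grem1 held 43 parts and the one led by Prg4 54 with agrimoniin, 53 and 36 with erlotinib, 56 and 37 with the combination, and 72 and 15 in control. Within the Grem1 cluster Ereg had 55.1 CPM (30.9 to 90.9) with agrimoniin, 55.6 CPM (32.9 to 87.8) with erlotinib, 40.4 CPM (19.4 to 74.3) with the combination and 78.3 CPM (56.4 to 106) in control, with overlapping intervals. Over all mouse parts, 3 parts held 28 of the 43 Ereg UMIs of control, so a few parts set these levels. Egfr in fibroblast-like parts had 158.2 CPM with agrimoniin, 133 with erlotinib, 181 with the combination and 158.2 in control, with each interval against control holding 1. Hbegf there had 261 CPM with agrimoniin, 234 with erlotinib, 189 with the combination and 250.2 in control, and only the combination lay below control beyond counting error, 1.33-fold (1.00 to 1.77). In macrophage-like parts Hbegf had 15 UMIs with agrimoniin (30.96 CPM), 14 with erlotinib (32.5 CPM), 29 with the combination (105 CPM) and 4 in control (16.0 CPM), a 6.58-fold higher level with the combination than in control (2.31 to 25.8). Of these macrophage-like parts, the cluster led by Ccl8 held 25 with agrimoniin, 26 with erlotinib, 23 with the combination and 7 in control, and 27 of the 29 UMIs of the combination were in it. In the cluster led by Fcrls, Hbegf had 20.7 CPM with agrimoniin, 15.6 with erlotinib, 10.6 with the combination and 18.5 in control. In monocyte-like parts Hbegf had 5 UMIs with agrimoniin, 6 with erlotinib, 6 with the combination and 19 in control. The fibroblast-like share of mouse parts was 32.7% with agrimoniin, 29.2% with erlotinib, 37.3% with the combination and 43.1% in control, and its part in the levels over all mouse parts was not tested.

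With the libraries summed, human ligand levels differed with the host material in the barcode. Human EREG had 68.5 CPM (61.1 to 76.6) beside fibroblast-like mouse parts, 54.4 CPM (45.7 to 64.2) beside monocyte-like and 43.7 CPM (37.9 to 50.2) beside macrophage-like parts. In control alone the order was not seen, with 87.8 CPM beside fibroblast-like, 89.0 beside monocyte-like and 98.2 beside macrophage-like parts, and with erlotinib the levels were 44.0 CPM beside fibroblast-like, 35.5 beside monocyte-like and 41.5 beside macrophage-like parts. Human HBEGF, summed, had 17.5 CPM (13.8 to 21.8) beside fibroblast-like, 20.9 CPM (15.6 to 27.3) beside monocyte-like and 33.6 CPM (28.5 to 39.3) beside macrophage-like parts. Human EGFR had 159.8 CPM beside fibroblast-like, 179 beside monocyte-like and 172 beside macrophage-like parts. EREG was lowest beside macrophage-like parts with the combination, 22 UMIs or 18.9 CPM, against 74 UMIs or 98.2 CPM in control, a ratio of 0.19 (0.11 to 0.31). For agrimoniin the EREG interval against control holds 1 beside fibroblast-like (ratio 0.97, 0.73 to 1.31) and monocyte-like parts (0.77, 0.48 to 1.24) and not beside macrophage-like parts (0.38, 0.26 to 0.55). EGFR with the combination was below control beside monocyte-like parts (ratio 0.70, 0.50 to 0.98). Whether a barcode's human and mouse parts came from neighbouring cells was not tested.

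Of the 6 other ligand genes of the family, the neuregulin NRG1 was the most abundant, with 72.9 CPM with agrimoniin, 50.9 with erlotinib, 55.0 with the combination and 60.7 in control, and no interval against control excluded 1. NRG2 had between 10.6 and 13.2 CPM. EGF had 2 UMIs in human parts, NRG3 3, NRG4 1 and EPGN 0. NRG1 was highest in cluster 0 of the human parts, at 104 CPM, as HBEGF was. On the host side Nrg1 had 59.8 CPM with agrimoniin, 65.0 with erlotinib, 33.7 with the combination and 27.8 in control. It was higher than in control with agrimoniin, 2.15-fold (1.41 to 3.35), and with erlotinib, 2.34-fold (1.55 to 3.62), and the interval for the combination holds 1. By class it was highest in monocyte-like parts, at 107 CPM (84.9 to 134) with the libraries summed. Within fibroblast-like parts Nrg1 stood above control, 2.94-fold with agrimoniin (1.43 to 6.49) and 3.30-fold with erlotinib (1.63 to 7.23). Both folds rest on 11 UMIs in control. The clusters led by Grem1 and by Prg4 made up this class in different proportions by library, and their part in these folds was not tested. Within macrophage-like and within monocyte-like parts the intervals of both drugs against control hold 1. The monocyte-like share of mouse parts was 15.5% with agrimoniin, 26.6% with erlotinib, 16.5% with the combination and 18.8% in control. The part of this share in the Nrg1 levels was not tested.

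The rest of the pathway was described by 6 further lists against control, at the same 1.5-fold rule. By that rule 5.18% of all human genes tested were called with agrimoniin, 6.46% with erlotinib and 5.93% with the combination. Of 7 genes of ligand release, 6 passed 10 CPM with agrimoniin, 5 with erlotinib and 5 with the combination, and none was called. Among them ADAM17, the main protease for AREG, EREG, HBEGF and TGFA, had 121 CPM with agrimoniin, 136 with erlotinib, 134 with the combination and 130.1 in control. Of 10 adaptors, 1 was called, GAB2 at 1.51 times control with agrimoniin (0.94 to 2.46). Of 10 receptor inhibitors, LRIG1, which promotes the breakdown of EGFR, was 2.36-fold lower with agrimoniin (1.34 to 4.23) and 1.90-fold lower with the combination (1.09 to 3.38), and LRIG2 was called lower with the combination with an interval that holds 1. ERRFI1, which binds and inhibits the EGFR kinase, had 1390.2 CPM with agrimoniin, 1139 with erlotinib, 1301 with the combination and 1225 in control. None of 9 RAS, RAF, MEK and ERK genes was called. Of 8 PI3K-AKT genes, PIK3R1, a regulatory subunit of PI3K, was called with erlotinib (1.53-fold lower, 1.17 to 2.00). Of 15 ERK target genes past 10 CPM, 2 were higher with agrimoniin (DUSP6 and SPRY1), 2 lower with erlotinib (DUSP6 and EMP1) and 1 higher with the combination (DUSP6). DUSP6, a phosphatase gene that ERK signalling switches on, had 334 CPM with agrimoniin, 95.1 with erlotinib, 312 with the combination and 186 in control, so it did not order the libraries as EREG did. The median log2 ratio of the ERK targets to control was 0.08 with agrimoniin, -0.07 with erlotinib and -0.03 with the combination.

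By the smallest difference in log2(CPM + 1), centred over the 4 libraries, the genes most like EREG among 7171 were ZBTB6, MEIS2 and MTRNR2L12. ZBTB6 had 26.0 CPM with agrimoniin, 19.1 with erlotinib, 20.3 with the combination and 35.5 in control. MTRNR2L12 resembles mitochondrial ribosomal RNA, and reads of the 2 cannot be told apart here. The genes most like HBEGF were EFL1, FBXL2 and PIGT. This likeness rests on 4 libraries and is a description.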

How the data were processed

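Single-cell RNA was measured in 4 libraries, 1 per group as labelled. Tumours were dissociated with collagenase II and cells loaded, per the labels' protocols, on a 10x Genomics Chromium 3 prime kit for a target of 8000 cells. Cell Ranger, hg38 and mm10 are named, per the submitters' processing notes, with no version. The authors deposited raw UMI counts for each gene in each barcode. How the authors chose barcodes is not stated. The barcodes, 3 blocks of 9 bases, do not have the layout of that kit, so the platform is in doubt. At 90% of UMIs as a species rule, 9 agrimoniin, 7 erlotinib, 23 combination and 0 control barcodes would be human and 0 mouse, so barcodes were split by gene into a human and a mouse part. Human and mouse molecules that were miscounted between species were not removed, and no doublet caller was run.

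Filters on a part were a minimum of 500 UMIs and of 250 genes and a maximum of 25% mitochondrial UMIs. UMIs were summed per library and scaled to CPM. Ratios have exact 95% intervals conditional on the sum of both counts, levels exact Poisson and shares exact Clopper-Pearson intervals; all cover counting error only, and UMIs are not independent cells. A floor of 3 counts was used for genes at 0. A gene was called at 1.5-fold with a mean of at least 10 CPM over the libraries compared. The ratio code was tested on simulated data. Counts from 3 prime ends are not scaled by gene length, and capture can differ between genes, so levels of different genes compare captured molecules.

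Human and mouse parts were clustered with scanpy 1.11.5 and leidenalg 0.10.2 (2000 variable genes, 20 components, 15 neighbours, resolution 0.5), leaving out 15 family genes. Clusters took a "-like" name by their mean marker level with at least 3 markers detected in 25% of parts. Mouse clusters led by genes such as Il2rb, Btla and Klrd1, or by cell-cycle genes such as Top2a and Mki67, stayed unnamed. This naming rule was set after the data were seen, and different names could give other class values. Intervals used scipy 1.17.1.

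All 9 members are named; pathway genes come from 7 lists, and the 3 genes most alike are named for members with a mean of at least 20 CPM and a 1.5-fold range. The members and lists were chosen with earlier results of these data known. Alternatives covered filters, species share, scaling, single parts, thinning, cluster resolution and host class.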

Additional observations from a re-analysis of the deposited data

Results flagged for a closer look

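Mouse Epgn, the epigen gene, was outside the comparisons of the 9 genes. It had 21 UMIs in the combination, 23.6 CPM of mouse UMIs, and 0 UMIs in the agrimoniin, erlotinib and control libraries. All came from 2 of 249 mouse parts, with 13 and 8 UMIs, and both parts were in clusters that stayed unnamed. Human EPGN had 0 UMIs in all 4 libraries.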

How the results depend on the processing

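No paired analysis was possible because each group has 1 library. With 1 library per group, no library could be left out. Of 477 recomputed ratios of single genes, 422 stayed within the interval of the main ratio, 52 moved and 3 ratios of called genes turned round. A change of direction was counted for called ratios only. Ratios that were not called could also cross 1. TGFA in agrimoniin over control, for example, went from 0.88 to 2.50 beside fibroblast-like mouse parts. The 3 called ratios that turned round were HBEGF in erlotinib over agrimoniin, 1.07 in barcodes with at least 75% human UMIs, and 2 of TGFA. Beside fibroblast-like mouse parts TGFA was 2.60 in combination over erlotinib and 0.23 in erlotinib over agrimoniin. The interval of the 2.60 holds 1 (0.87 to 9.31). The cause was not tested. The count of called members stayed within 1.5 times in 54 of 72 cases. In brackets after each count that follows is the share of all genes tested that were called in that setting. Against control the count was 2 for agrimoniin beside macrophage-like parts (17.7%). For erlotinib it was 4 with mitochondrial shares at most 10% (10.9%), 3 beside macrophage-like (19.4%) and 2 beside fibroblast-like parts (16.8%). It was also 3 with equal cluster weights (5.68%) and 3 with no filter on low values (21.2%). For the combination against control it was 1 at 50 CPM or more (1.32%). For the combination over erlotinib it was 2 at 75% human UMIs (6.64%), 2 beside macrophage-like (16.0%) and 0 beside fibroblast-like parts (14.7%). There it was also 2 with no low filter (19.4%) and 0 at 50 CPM (1.27%). For the combination over agrimoniin it was 1 with equal cluster weights (3.85%) and 0 at 50 CPM (0.57%). For erlotinib over agrimoniin it was 1 with a common minimum of 2590 mouse UMIs (5.64%) and 1 with equal weights (3.96%). There it was also 4 with no low filter (19.4%) and 0 at 50 CPM (1.26%). The 50 CPM limit leaves fewer members to call, and the host-class and cluster-weight alternatives were chosen after seeing the data. HBEGF in combination over agrimoniin was no longer called with equal cluster weights (0.76) or beside fibroblast-like parts (0.78), nor AREG at 75% human UMIs (0.68). At these depths the intervals of AREG and TGFA ratios, on 26 to 66 UMIs, reach about 1.5-fold or more to either side.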
